A study of Mus musculus with 9 samples.

Results

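The genes that copy nuclear DNA were followed through IL-23-induced inflammation of the mouse ear. A set of 40 genes was taken by symbol: 10 for origin licensing, 6 for helicase activation, 9 for polymerases and primase, 6 for the sliding clamp and its loader, 2 for the maturation of Okazaki fragments, 5 for nucleotide supply and 2 for histone deposition. All 40 were found among the 54838 genes of the count tables, and 36 of them passed the filter on low counts, as 13807 genes did in all. RNA came from whole ears of C57BL/6 mice aged 10 weeks, and each mouse had received 15 µg of minicircle DNA, a small DNA ring without bacterial backbone, by hydrodynamic injection into the tail vein. One group was wild type with a minicircle for GFP, the control protein, the next was wild type with a minicircle for the cytokine IL-23, and the last was Mdl-1-/- with the IL-23 minicircle, 3 libraries each. MDL-1 is a receptor of myeloid cells encoded by Clec5a. No Mdl-1-/- library with GFP DNA was analysed, so a genotype difference that was there before IL-23 and one in the response to IL-23 cannot be told apart. The labels do not say that the 3 libraries of a group are 3 animals, so the p-values measure the spread between libraries, which may be technical.

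Replication begins in G1, when the origin recognition complex, CDC6 and CDT1 load the ring-shaped MCM2-7 helicase onto DNA. In S phase CDC45 and the GINS complex join MCM2-7 to make the active helicase, DNA polymerase alpha with primase starts each strand, and polymerases epsilon and delta extend the strands while held by PCNA, a ring that replication factor C loads. Many of these genes are transcribed at the G1-S boundary under E2F transcription factors, and in skin the dividing cells lie mainly in the basal epidermis and the hair follicle.

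The promoters shown are those of Mcm5, which had the lowest adjusted p of the set for IL-23 against GFP in wild type and for Mdl-1-/- against wild type, of Rrm2, which had it for Mdl-1-/- with IL-23 against wild type with GFP, and of Mcm6, which held most E2F matches. They are RefSeq windows on GRCm38.p6 from 250 bases before to 50 after the annotated start, 5′ to 3′ in the direction of the gene, and capitals mark matches to E2F motifs. Mcm5 is on the plus strand (chr8:75109259-75109558), Mcm6 on the minus strand (chr1:128359656-128359955) and Rrm2 on the plus strand (chr12:24708004-24708303).
Mcm5: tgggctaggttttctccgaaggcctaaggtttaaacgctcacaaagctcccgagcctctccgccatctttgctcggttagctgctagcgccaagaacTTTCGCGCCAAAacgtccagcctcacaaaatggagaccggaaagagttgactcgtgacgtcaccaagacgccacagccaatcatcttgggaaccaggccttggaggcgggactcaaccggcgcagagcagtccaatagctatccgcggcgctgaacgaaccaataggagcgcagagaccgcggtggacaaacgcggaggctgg
Mcm6: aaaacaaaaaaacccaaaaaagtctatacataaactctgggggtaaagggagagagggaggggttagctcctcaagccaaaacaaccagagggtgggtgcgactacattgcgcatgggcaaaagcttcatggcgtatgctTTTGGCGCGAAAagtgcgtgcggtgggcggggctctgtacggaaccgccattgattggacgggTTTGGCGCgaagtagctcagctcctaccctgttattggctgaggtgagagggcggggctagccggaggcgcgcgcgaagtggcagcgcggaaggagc
Rrm2: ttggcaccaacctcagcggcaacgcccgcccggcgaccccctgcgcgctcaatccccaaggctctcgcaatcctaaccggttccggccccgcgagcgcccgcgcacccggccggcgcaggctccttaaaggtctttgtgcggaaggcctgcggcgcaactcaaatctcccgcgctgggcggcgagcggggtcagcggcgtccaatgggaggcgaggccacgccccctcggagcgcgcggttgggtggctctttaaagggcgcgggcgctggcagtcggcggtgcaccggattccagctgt
The motifs searched on both strands were TTTCGCGC, TTTCCCGC, TTTGGCGC, TTTGGCGG, TTTCCCGG and TTTGCCGC, and overlapping matches were each counted. Mcm5 held 2 overlapping matches, starting at -153 and -149 from the start, Mcm6 held 3, at -110, -106 and -47, and the Rrm2 window held 0. A window was on hand for 33 of the 40 genes. E2F letters stood in 15 of these 33 windows (45.5%), against 1093 of 27025 windows of all genes (4.04%) and 3 of 25 windows of a list of mitosis genes (12%). CCAAT, the motif bound by NF-Y, stood in 57.6% of the replication windows, 84.0% of the mitosis windows and 37.9% of all windows. TTTGAA, the core of the cell cycle homology region of G2-M promoters, stood in 12.1%, 68.0% and 18.1% in the same order. Among the replication genes, E2F letters were found in 5 of 9 windows of genes that rose with IL-23 and in 9 of 21 windows of the other tested genes. A match is a description of letters and not a measured binding site.

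Libraries held 3776188 to 5605713 counts, and the replication genes took 0.0820% to 0.108% of them. A tested gene was read at 1.37 to 160.0 CPM (counts per 1e+06 counts, scaled by the trimmed mean of M-values, TMM). The 3′ tag method reads each transcript near its end, so a value follows 1 gene across libraries and is not compared between genes. Mitochondrial genes took 12.6% to 15.1% of counts with GFP DNA, 8.69% to 8.99% in wild type with IL-23 and 11.4% to 12.9% in Mdl-1-/- with IL-23. Leaving them out changed no count of called replication genes. Clec5a was read at 2, 7 and 10 counts with GFP DNA, 17, 21 and 11 in wild type with IL-23 and 10, 13 and 5 in the libraries labelled Mdl-1-/-. A tag outside the deleted part does not check the genotype, and that part is not named in the labels.

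With IL-23 DNA, 12 of the 36 tested replication genes rose in wild-type ear and 1 fell, while 23 were not called (edgeR quasi-likelihood test, adjusted p under 0.05 over all tested genes). The 12 were Orc1, Cdt1, Mcm2, Mcm3 and Mcm5 of licensing, Gins1 and Gins4 of the helicase, the polymerase subunit gene Pold1, the clamp loader genes Rfc2 and Rfc5, the ligase gene Lig1 and the ribonucleotide reductase gene Rrm2, and the gene that fell was Orc6. Over all genes tested, 44.7% were called in this comparison, 22.9% as higher and 21.7% as lower. The log2 fold changes of the replication genes ran from -1.04 to 1.78 with a median of 0.38, against -0.04 over all genes, and 29 of 36 were above 0, against 48.0% of all genes. Scaling by library totals alone moved the median of all genes by -0.40 and that of the replication genes to -0.01, with 17 of 36 above 0, 6 called higher and 5 lower, so the direction of the set as a whole held only relative to the other genes. Values of 14 of the 36 lay above the GFP range in all 3 IL-23 libraries and 0 lay below it, against 27.3% and 27.4% of all genes. In bulk RNA, fewer cells of a type and less RNA per cell cannot be told apart.

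**Figure D1:**
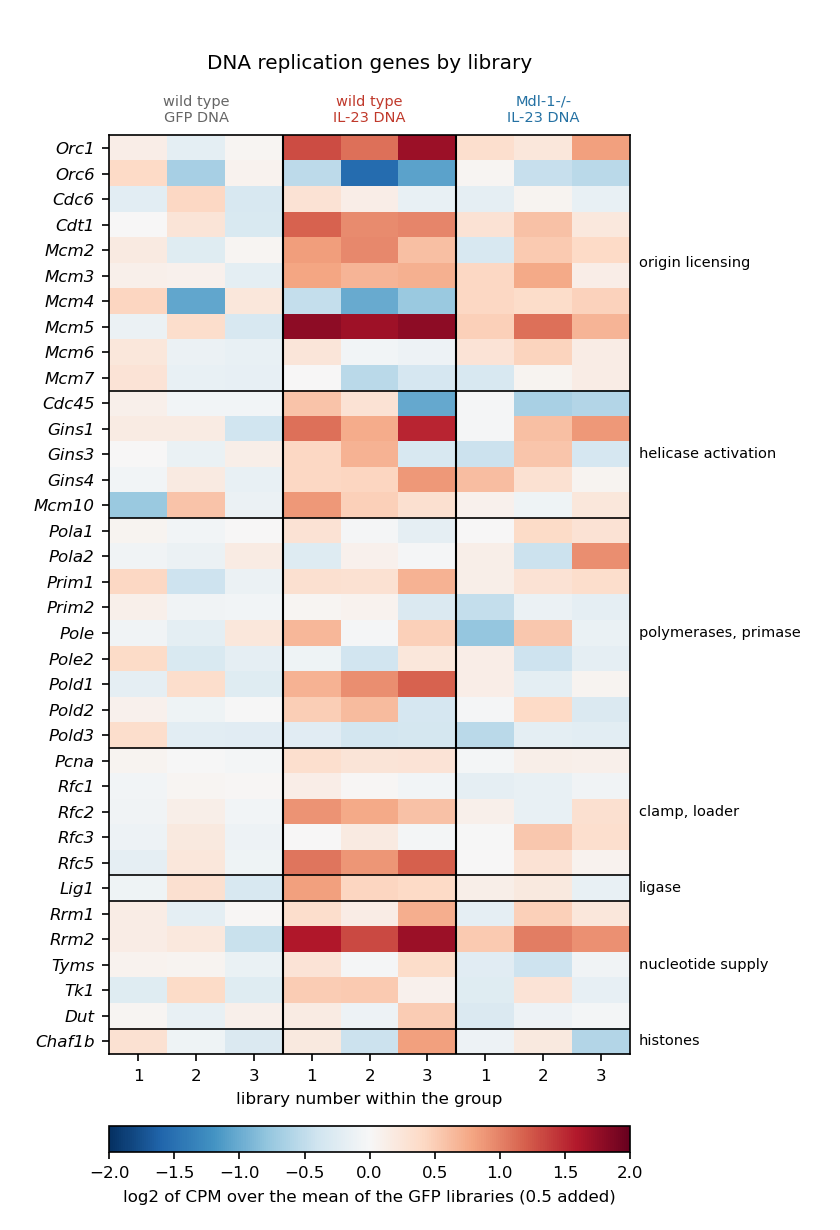
Heat map of the 36 tested replication genes (rows, by role) in the 9 libraries (columns). Colour gives the log2 of CPM over the mean of the GFP libraries, with 0.5 CPM added to both; Mcm5, Rrm2, Orc1 and Cdt1 are red in all 3 IL-23 wild-type libraries and paler in the Mdl-1-/- libraries, while Orc6 and Mcm4 are blue in the IL-23 wild-type libraries.

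Licensing genes gave the largest rise and the 1 fall called by edgeR; DESeq2 called Mcm4 lower as well. Mcm5, a subunit of the MCM2-7 ring (chromosome 8, 75109569 to 75128439, GRCm38, plus strand), was at 29.4, 41.1 and 25.7 CPM with GFP DNA, at 112, 105 and 112 CPM in wild type with IL-23 and at 44.7, 69.8 and 51.8 CPM in Mdl-1-/- with IL-23. The 3 groups did not overlap. The mean went from 32.1 ± 8.07 to 109.6 ± 3.94 CPM (SD, n = 3), a 3.42-fold rise (log2 1.78, SE 0.19, edgeR adjusted p = 4.83e-06).

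Other licensing genes rose less. Orc1, the large ATPase subunit of the origin recognition complex (chromosome 4, 108579423 to 108614833, plus strand), was at 7.31, 5.69 and 6.81 CPM with GFP DNA, at 17.0, 14.7 and 22.8 CPM in wild type with IL-23 and at 8.50, 7.78 and 11.98 CPM in Mdl-1-/-. It rose 2.71-fold with IL-23 (SE 0.25 on the log2 scale, edgeR adjusted p = 0.000285). Cdt1, the MCM loading factor (chromosome 8, 122568015 to 122573554, plus strand), was at 28.02, 33.4 and 22.4 CPM, then 63.7, 54.1 and 55.5 CPM, then 34.2, 42.3 and 32.3 CPM in the same order of groups. It rose 2.07-fold (SE 0.18, edgeR adjusted p = 0.000203). In both genes each IL-23 wild-type library was above all 6 others. Mcm2 was at 9.92, 7.35 and 8.97 CPM with GFP DNA and at 16.0, 17.5 and 13.6 CPM with IL-23. It rose 1.80-fold (SE 0.25, edgeR adjusted p = 0.0117). Mcm3 was at 34.3, 34.2 and 27.8 CPM against 55.9, 51.9 and 52.9 CPM. It rose 1.67-fold (SE 0.17, edgeR adjusted p = 0.00257). The Mcm2 call was lost without IL-23 wild-type library 2 (adjusted p = 0.0552). Under library totals alone the Mcm2 and Mcm3 calls were both lost (edgeR adjusted p = 0.152 and 0.110). Their Mdl-1-/- libraries, at 6.93, 12.8 and 11.7 CPM for Mcm2 and at 43.2, 54.4 and 35.2 CPM for Mcm3, were spread more widely than either wild-type group.

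Orc6, the smallest subunit of the origin recognition complex (chromosome 8, 85299632 to 85308278, plus strand), moved the other way from Orc1. It was at 17.4, 8.08 and 13.8 CPM with GFP DNA and at 8.94, 4.16 and 5.95 CPM in wild type with IL-23. This was a 2.06-fold fall (log2 -1.04, SE 0.33, edgeR adjusted p = 0.0172), although the highest IL-23 library was above the lowest GFP library. The call was lost when GFP library 1 or 3 or IL-23 wild-type library 2 or 3 was left out (adjusted p = 0.0941, 0.0505, 0.0985 and 0.0515, log2 -0.78, -1.0, -0.79 and -0.99). Its Mdl-1-/- libraries were at 13.4, 9.38 and 8.87 CPM. Taken within each library, which needs no scaling, Orc1 had 0.42, 0.705 and 0.494 counts per count of Orc6 with GFP DNA, 1.90, 3.53 and 3.83 in wild type with IL-23 and 0.633, 0.829 and 1.35 in Mdl-1-/-. This ratio, like the others given below, was chosen after the values were seen and has no test.

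The 6 subunits of the MCM2-7 ring did not move alike. Mcm2, Mcm3 and Mcm5 rose, whereas the log2 fold changes of Mcm6 (0.04, 95% interval -0.28 to 0.36), Mcm7 (-0.28, -0.69 to 0.14) and Mcm4 (-0.74, -1.35 to -0.14) were not called (edgeR adjusted p = 0.857, 0.304 and 0.0692). Under library totals alone Mcm7 was called lower (log2 -0.67, edgeR adjusted p = 0.0194). Mcm4 (chromosome 16, 15623897 to 15637400, minus strand) was at 51.9, 18.5 and 45.2 CPM with GFP DNA, at 27.5, 18.8 and 22.8 CPM in wild type with IL-23 and at 51.7, 49.9 and 53.4 CPM in Mdl-1-/- with IL-23. GFP library 2 stood with the IL-23 wild-type libraries and apart from the other two GFP libraries, and without it Mcm4 was called lower (log2 -1.05, edgeR adjusted p = 0.000232). Mcm4 was called lower in 7 of 20 alternative settings, among them DESeq2 (adjusted p = 0.0417), non-robust dispersions (0.0479) and no count filter (0.000606), and its log2 difference was below 0 in all 20 (-1.15 to -0.46). Mcm5 had 0.567, 2.22 and 0.568 counts per count of Mcm4 with GFP DNA, 4.08, 5.58 and 4.90 in wild type with IL-23 and 0.866, 1.40 and 0.969 in Mdl-1-/-.

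**Figure D2:**
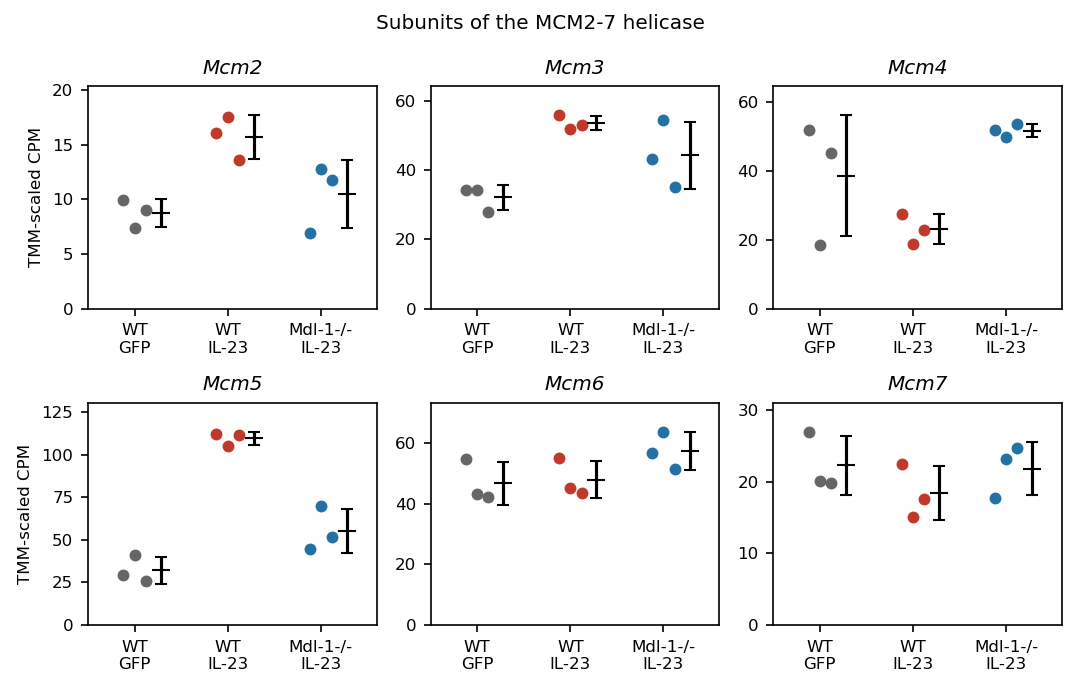
TMM-scaled CPM of the 6 MCM2-7 subunit genes, 1 panel each with its own axis from 0; points are libraries and bars the mean ± SD of 3 libraries. Mcm5 lies at 105 to 112 CPM in wild type with IL-23 and at 25.7 to 69.8 CPM elsewhere, whereas Mcm4 is lower in wild type with IL-23 (18.8 to 27.5 CPM) than in Mdl-1-/- (49.9 to 53.4 CPM), with GFP library 2 at 18.5 CPM.

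The genes of helicase activation were read at low levels. Gins1, a GINS subunit (chromosome 2, 150905400 to 150931280, plus strand), was at 6.44, 6.43 and 4.18 CPM with GFP DNA, at 12.8, 9.85 and 17.2 CPM in wild type with IL-23 and at 5.59, 8.92 and 10.8 CPM in Mdl-1-/-. It rose 2.32-fold with IL-23 (SE 0.30, edgeR adjusted p = 0.00402). Gins4 was at 9.92, 11.8 and 9.28 CPM, then 14.0, 14.0 and 19.2 CPM, then 16.1, 12.8 and 10.8 CPM. This was a 1.51-fold rise (SE 0.23, edgeR adjusted p = 0.0438). The wild-type ranges did not overlap in either gene, but the Gins4 call was kept in 9 of 20 alternative settings and was lost without GFP library 1 or 3, IL-23 wild-type library 2 or 3 or Mdl-1-/- library 2 (adjusted p = 0.0503 to 0.163). Cdc45, Gins3 and Mcm10, which opens the helicase for firing, had log2 fold changes of 0.15, 0.38 and 0.64 and were not called; without GFP library 2, Mcm10 was called higher (adjusted p = 0.0208).

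Among the polymerase and primase genes 1 of 9 rose and 0 fell, where 22.9% of all genes were called higher and 21.7% lower. DESeq2 and limma voom also called 1 higher and 0 lower, as did an unadjusted p under 0.05. With library totals alone the Pold1 rise was not called (edgeR adjusted p = 0.110) and Pold3 was called lower (log2 -0.73, edgeR adjusted p = 0.0184). Pold1, the catalytic subunit of polymerase delta (chromosome 7, 44532746 to 44548849, minus strand), was at 2.78, 4.22 and 2.63 CPM with GFP DNA, at 5.5, 6.57 and 7.94 CPM in wild type with IL-23 and at 3.58, 2.74 and 3.35 CPM in Mdl-1-/-. This was a 2.06-fold rise with IL-23 (SE 0.33, edgeR adjusted p = 0.0162). The 3 IL-23 wild-type libraries were above the other 6, but the call was lost without GFP library 1 or 3 or IL-23 wild-type library 3 (adjusted p = 0.0569, 0.0707 and 0.0598). The remaining genes, the polymerase alpha subunits Pola1 and Pola2, the primase subunits Prim1 and Prim2, the polymerase epsilon genes Pole and Pole2, and Pold2 and Pold3, ran from -0.32 (Pold3) to 0.46 (Prim1) on the log2 scale, and Prim1 was called higher without GFP library 1 (adjusted p = 0.0426). Pola1 was at 27.9 ± 1.04 CPM with GFP DNA and 28.8 ± 5.07 CPM in wild type with IL-23 (SD, n = 3). Its log2 difference of 0.05 had a 95% interval of -0.29 to 0.39.

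In the clamp loader, Rfc2 and Rfc5, genes of small subunits, rose, while Rfc3, another small subunit gene, and Rfc1, the gene of the large subunit, were not called. Rfc5 (chromosome 5, 117378103 to 117389047, minus strand) was at 13.2, 17.8 and 14.2 CPM with GFP DNA, at 32.1, 28.2 and 35.05 CPM in wild type with IL-23 and at 15.2, 18.5 and 15.8 CPM in Mdl-1-/-. It rose 2.10-fold with IL-23 (SE 0.19, edgeR adjusted p = 0.000267). Rfc2 (chromosome 5, 134581366 to 134601805, plus strand) was at 13.2, 15.2 and 13.5 CPM, then 26.6, 24.1 and 21.2 CPM, then 14.98, 12.6 and 17.5 CPM. It rose 1.72-fold (SE 0.19, edgeR adjusted p = 0.00387, and 0.134 under library totals alone). In both, the IL-23 wild-type libraries were above all others and the Mdl-1-/- libraries lay among the GFP libraries or close to them. Rfc1 had a log2 difference of 0.04 (95% interval -0.21 to 0.29), which became -0.36 and was called lower under library totals alone, and Rfc3 one of 0.06 (-0.30 to 0.42). Within a library, Rfc5 had 0.137, 0.172 and 0.139 counts per count of Rfc1 with GFP DNA, 0.289, 0.274 and 0.361 in wild type with IL-23 and 0.172, 0.204 and 0.165 in Mdl-1-/-. Pcna, the clamp itself, was at 59.9, 57.7 and 56.0 CPM with GFP DNA, at 73.3, 69.6 and 69.8 CPM in wild type with IL-23 and at 56.6, 62.4 and 61.8 CPM in Mdl-1-/-. Its wild-type ranges did not overlap, yet the difference was small (1.23-fold, log2 0.29, SE 0.13) and was not called (edgeR adjusted p = 0.078).

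The last steps and the supply of precursors gave 2 further rises. Lig1, which seals Okazaki fragments (chromosome 7, 13277283 to 13311433, plus strand), was at 85.1, 114 and 72.7 CPM with GFP DNA, at 160.0, 122 and 119 CPM in wild type with IL-23 and at 98.6, 104 and 81.2 CPM in Mdl-1-/-. It rose 1.48-fold (SE 0.18, edgeR adjusted p = 0.0165). That call was lost without GFP library 1 or 3 or IL-23 wild-type library 1 (adjusted p = 0.0611, 0.104 and 0.0802). It was also lost under library totals alone (edgeR adjusted p = 0.465). Rrm2, the S phase subunit of ribonucleotide reductase (chromosome 12, 24708241 to 24714146, plus strand), was at 21.2, 22.04 and 13.9 CPM with GFP DNA, at 58.7, 48.6 and 63.8 CPM in wild type with IL-23 and at 27.7, 39.3 and 36.2 CPM in Mdl-1-/-. The 3 groups did not overlap, and the rise with IL-23 was 2.99-fold (log2 1.58, SE 0.20, edgeR adjusted p = 1.91e-05). Rrm1, the partner subunit, was at 44.4, 34.9 and 40.7 CPM against 51.3, 44.4 and 66.8 CPM and was not called (log2 0.43, edgeR adjusted p = 0.0769). Rrm2 accordingly went from 0.478, 0.632 and 0.342 counts per count of Rrm1 with GFP DNA to 1.14, 1.09 and 0.955 in wild type with IL-23, and stood at 0.785, 0.708 and 0.774 in Mdl-1-/-. Thymidylate synthase (Tyms), thymidine kinase (Tk1) and dUTPase (Dut) had log2 differences of 0.22, 0.41 and 0.21, and Chaf1b, a subunit of the histone chaperone CAF-1, one of 0.28; 0 of these 4 were called, though Tk1 was without GFP library 2 (adjusted p = 0.0246).

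Between Mdl-1-/- and wild type, both with IL-23 DNA, 7 of the 36 replication genes were lower in Mdl-1-/-, 1 was higher and 28 were not called (edgeR adjusted p under 0.05). Of all genes tested 17.7% were called, 10.1% as lower and 7.58% as higher. The median log2 difference was -0.33 over the replication genes and 0.00 over all genes, and 8 of the 36 were above 0, against 50.2% of all genes. In 13 genes all Mdl-1-/- libraries lay below the wild-type range and in 1 gene above it, against 19.2% and 17.2% of all genes. The 7 lower genes, Orc1, Cdt1, Mcm5, Pold1, Rfc2, Rfc5 and Rrm2, were all among the 12 that rose with IL-23; both comparisons use the same IL-23 wild-type libraries, so the overlap is not independent. The number called depended on single libraries: it was 2 without Mdl-1-/- library 1, 4 without Mdl-1-/- library 3, 4 without IL-23 wild-type library 3, and 5 without Mdl-1-/- library 2 or IL-23 wild-type library 2, against 8 with all libraries. Scaling by library totals alone left 4 called.

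Mcm5 was 1.98-fold lower in Mdl-1-/-, at 55.4 ± 12.9 against 109.6 ± 3.94 CPM (SD, n = 3; log2 -0.98, SE 0.19, edgeR adjusted p = 0.00344). Rfc5 was 1.92-fold lower (31.8 ± 3.41 against 16.5 ± 1.77 CPM, SE 0.19 on the log2 scale, edgeR adjusted p = 0.00454). These 2 calls were kept in all 20 alternative settings. None of these settings changed how reads were assigned to genes, and the last 300 exon bases of Rfc5 lie in exons of Wsb2. Orc1 was 1.91-fold lower (edgeR adjusted p = 0.0187) and Rrm2 1.65-fold lower (edgeR adjusted p = 0.0193). Rfc2 was 1.60-fold lower (edgeR adjusted p = 0.0264) and Cdt1 1.59-fold lower (edgeR adjusted p = 0.0167). Each of these 4 calls was lost without certain single libraries. For Orc1 these were Mdl-1-/- library 1 or 2 and IL-23 wild-type library 3 (adjusted p = 0.0617 to 0.0864), and for Rrm2 Mdl-1-/- library 1 or 3 and IL-23 wild-type library 3 (0.0519 to 0.0895). For Rfc2 they were Mdl-1-/- library 1 or 2 and IL-23 wild-type library 1 or 2 (adjusted p = 0.0749 to 0.0927), and for Cdt1 Mdl-1-/- library 1 or 3 (0.0644 and 0.0776). Pold1 was 2.04-fold lower (6.67 ± 1.22 against 3.23 ± 0.432 CPM, edgeR adjusted p = 0.0452), but with DESeq2 and limma voom it missed the threshold (adjusted p = 0.0605 and 0.0539), as it did when any 1 of the libraries other than GFP library 2 and IL-23 wild-type library 1 was left out (adjusted p = 0.0571 to 0.144).

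Mcm4 alone was higher in Mdl-1-/-, 2.24-fold, at 51.7 ± 1.79 against 23.05 ± 4.34 CPM (SD, n = 3; log2 1.16, SE 0.31, edgeR adjusted p = 0.0257), with no overlap between the groups. The call was lost without IL-23 wild-type library 2 or 3 or Mdl-1-/- library 1 or 3 (adjusted p = 0.0997, 0.0964, 0.0757 and 0.0665) and was at 0.0508 with limma voom, while the log2 difference stayed between 1.04 and 1.18 in these settings. Within the same ring, Mcm2, Mcm3, Mcm6 and Mcm7 had log2 differences of -0.59, -0.27, 0.26 and 0.25 and were not called. Orc6, the 1 gene called lower with IL-23 in wild type, had a difference of 0.73 (SE 0.34, edgeR adjusted p = 0.145).

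**Figure D3:**
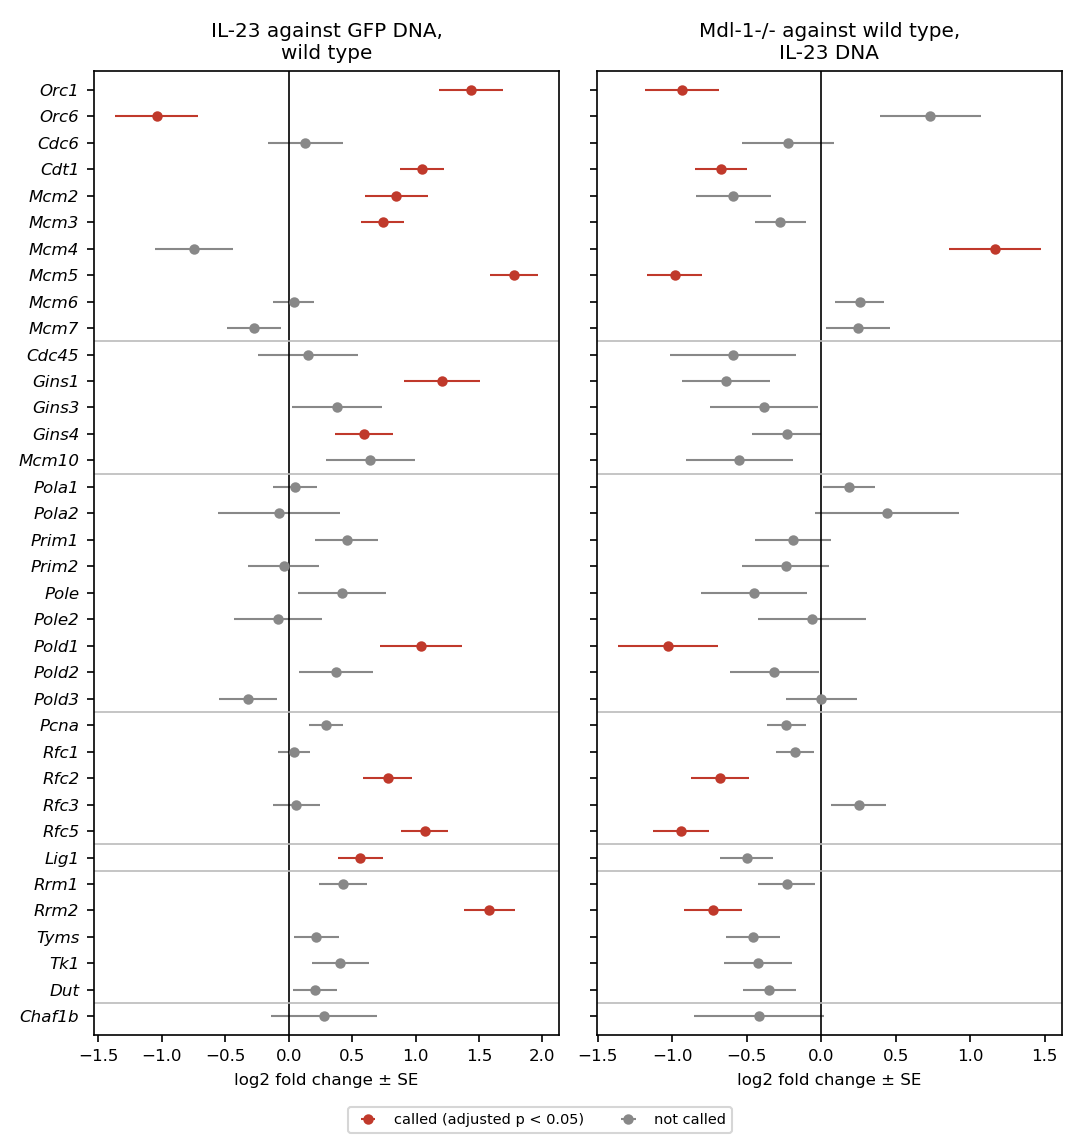
Log2 fold change ± SE of the 36 tested replication genes for IL-23 against GFP DNA in wild type (left) and for Mdl-1-/- against wild type with IL-23 (right), with genes called by edgeR in red. Orc1, Cdt1, Mcm5, Pold1, Rfc2, Rfc5 and Rrm2 are red to the right of 0 on the left and to the left of 0 on the right, and Mcm4 is the 1 gene red above 0 on the right; both panels share the IL-23 wild-type libraries.

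Among genes not called between the genotypes, Lig1 (-0.50, edgeR adjusted p = 0.0603, and 0.037 without GFP library 2), Tyms (-0.46, adjusted p = 0.0933), Mcm2 (-0.59, adjusted p = 0.114), Mcm10 (-0.55, adjusted p = 0.307), Pcna (-0.23, adjusted p = 0.228) and Rfc1 (-0.18, adjusted p = 0.358) had all Mdl-1-/- libraries below the wild-type range. The helicase genes other than the MCM ring gave 0 calls among 5 tested, where 17.7% of all genes were called, 10.1% as lower. At that share 0 of 5 does not set these genes apart. Of the 5, 1 was lower at an unadjusted p under 0.05, and DESeq2 and limma voom also called 0. Their differences ran from -0.64 for Gins1 to -0.23 for Gins4, all below 0.

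Set against wild type with GFP DNA, the Mdl-1-/- libraries with IL-23 had 2 replication genes higher and 0 lower, where 17.1% of all genes were called, 10.2% as higher and 6.93% as lower. DESeq2 and limma voom also called 2 higher and 0 lower, and at an unadjusted p under 0.05 there were 4 higher and 0 lower. Rrm2 was 1.81-fold higher (19.1 ± 4.47 against 34.4 ± 6.00 CPM, SE 0.20 on the log2 scale, edgeR adjusted p = 0.00837) and Mcm5 1.73-fold higher (32.1 ± 8.07 against 55.4 ± 12.9 CPM, SE 0.19, edgeR adjusted p = 0.00966). The Rrm2 call was kept in all 20 alternative settings, and that of Mcm5 was lost without GFP library 3 or Mdl-1-/- library 2 (adjusted p = 0.0604 and 0.0651). Mcm3 came next (log2 0.47, edgeR adjusted p = 0.0717, and 0.0318 without Mdl-1-/- library 3), and Cdt1 and Orc1 had differences of 0.38 and 0.51 (adjusted p = 0.154 and 0.199); without GFP library 2 Cdt1 was called higher (adjusted p = 0.0456). The median over the 36 genes was 0.08, against -0.02 for all genes, and 22 of the 36 were above 0, against 48.4% of all genes.

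In order of group means, 18 of the 36 genes were highest in wild type with IL-23, next in Mdl-1-/- with IL-23 and lowest with GFP DNA, and 8 more were highest in wild type with IL-23 but lowest in Mdl-1-/-. For Mcm5 and Rrm2 every step of that order was called, while for Orc1, Cdt1, Rfc2, Rfc5 and Pold1 the step between Mdl-1-/- with IL-23 and wild type with GFP was not. The mean log2 level of the 36 genes relative to the GFP mean was 0.50, 0.31 and 0.38 in the IL-23 wild-type libraries, 0.02, 0.21 and 0.13 in the Mdl-1-/- libraries and 0.08, 0.01 and -0.08 in the GFP libraries. Mdl-1-/- library 1 lay among the GFP libraries and library 2 came nearest to wild type with IL-23. A list of mitosis genes put the same libraries at 0.82, 0.37 and 0.46, then -0.07, 0.45 and 0.13, then 0.08, -0.01 and -0.07, with the same Mdl-1-/- library lowest and the same one highest.

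**Figure D4:**
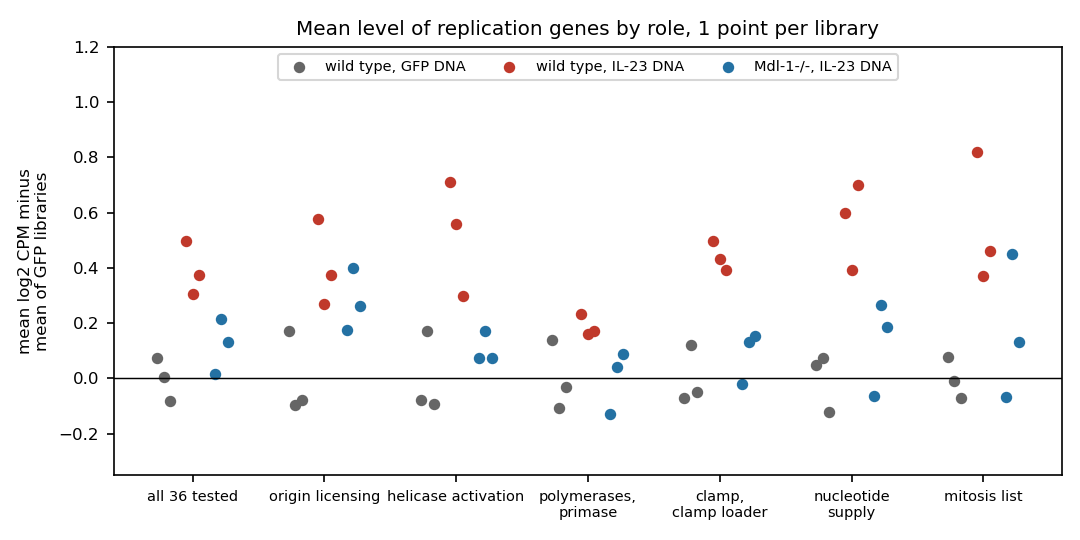
Mean log2 CPM minus the mean of the GFP libraries, 1 point per library, for all 36 tested replication genes, for 5 of their roles and for the mitosis list. Over all 36 genes the IL-23 wild-type libraries lie at 0.31 to 0.50, above the Mdl-1-/- libraries (0.02 to 0.21) and the GFP libraries (-0.08 to 0.08). For origin licensing the Mdl-1-/- libraries (0.18 to 0.40) overlap those of wild type with IL-23 (0.27 to 0.58). They overlap in the mitosis list as well (-0.07 to 0.45 and 0.37 to 0.82).

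Over the 9 libraries the genes followed each other only in part. The median Pearson r over the 630 pairs of genes was 0.20, and 418 pairs were above 0; after each group's mean was subtracted it was 0.16. These values share library, depth and group and are a description. Pcna followed the mean of the other genes most closely (r = 0.98 over 9 libraries), followed by Cdt1 (0.94), Rrm2 (0.92) and Mcm5 (0.91), whereas Orc6 (-0.65), Mcm4 (-0.51) and Pola2 (-0.34) ran against it.

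The 4 genes that could not be tested all end within exons of other genes, in part or in whole. Fen1, the flap endonuclease of Okazaki fragments, had 0 counts in all 9 libraries, which allows up to 0.464 to 0.992 TMM-scaled CPM by library, and 81.0% of the last 300 bases of its exons lie in exons of Tmem258 and Gm10143 on the opposite strand. Gins2 had 3, 3 and 0 counts with GFP DNA, 2, 1 and 1 in wild type with IL-23 and 4, 1 and 9 in Mdl-1-/-, and 100% of that stretch lies in Gse1. Rfc4 had 13, 6 and 8, then 7, 9 and 6, then 8, 5 and 13 counts, with 64.7% in Eif4a2, and Chaf1a had 1, 4 and 9, then 4, 1 and 3, then 4, 5 and 4 counts, with 81.0% in Ubxn6. Among the 36 tested genes the share was 0 for 33, and 100% for Rfc5 (in Wsb2), 63.3% for Pole2 and 21.3% for Mcm7. Strand handling in the counting is not given in the sources used here, so the part of this overlap in the low counts was not tested, and the level of Rfc5 is uncertain. Wsb2 itself, at 45, 52 and 41 counts with GFP DNA, 55, 66 and 43 in wild type with IL-23 and 49, 37 and 32 in Mdl-1-/-, rose with IL-23 (log2 0.80, edgeR adjusted p = 0.0127). In Mdl-1-/- against wild type with IL-23, Wsb2 had a log2 difference of -0.60 and was not called (edgeR adjusted p = 0.094). Pcna also has a processed copy, Pcna-ps2, with 854 counts over the 9 libraries, which had a log2 difference of -0.40 with IL-23 (edgeR adjusted p = 0.116), so reads shared between the copies leave the level of Pcna uncertain.

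Lists of neighbouring pathways were counted in the same fit and are set here against the shares of all genes called. Of 39 tested genes for other replication factors, 12 rose and 0 fell with IL-23 in wild type, against 22.9% higher and 21.7% lower among all genes (15 had an unadjusted p under 0.05, 14 of them higher; DESeq2 called 0 lower and limma voom 1). The largest rise was in Donson, a factor of helicase assembly (log2 1.32, SE 0.26, edgeR adjusted p = 0.000873), and Donson was also the gene with the largest fall in Mdl-1-/- against wild type (-0.98, SE 0.27, adjusted p = 0.0201), where 2 of 39 were lower and 0 higher, against 10.1% and 7.58% of all genes; DESeq2 and limma voom called the same numbers, and 2 were higher at an unadjusted p under 0.05. In Mdl-1-/- with IL-23 against GFP, 2 of the 39 were higher, Gmnn (geminin, the inhibitor of CDT1) by 0.62 and Rnaseh2a by 0.60 (edgeR adjusted p = 0.0479 and 0.0302), against 10.2% of all genes. Both counts of 2 were below the share of all genes. The Donson call between genotypes was lost without IL-23 wild-type library 1 or 2 or Mdl-1-/- library 1 (adjusted p = 0.0503 to 0.0933), that of Rnaseh2a without GFP library 1 or 3 or Mdl-1-/- library 1 or 2 (0.0554 to 0.1), and that of Gmnn in 14 of 20 alternative settings.

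Of 24 tested genes of nucleotide metabolism, 9 rose and 3 fell with IL-23, 12 in all where 44.7% of all genes were called, 22.9% as higher and 21.7% as lower. Samhd1, a dNTP hydrolase that is also high in myeloid cells, rose most (35.3 ± 9.07 to 181 ± 56.7 CPM, log2 2.36, edgeR adjusted p = 0.0017) and Ctps2 fell most (log2 -1.07, edgeR adjusted p = 0.0107). Between the genotypes 4 of 24 were called, all lower, which is near the share of all genes called (17.7%, 10.1% as lower). The largest fall was in Cad of pyrimidine synthesis (28.4 ± 5.01 to 13.2 ± 0.439 CPM, log2 -1.11, edgeR adjusted p = 0.00344). Samhd1 was the largest of 3 rises in Mdl-1-/- with IL-23 against GFP (log2 1.53, edgeR adjusted p = 0.0295), a call lost without GFP library 1 or 3 or Mdl-1-/- library 2 or 3 (adjusted p = 0.0692 to 0.0994).

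Of 30 tested genes that control entry into S phase, 3 were higher and 9 lower with IL-23, a total near the share of all genes called (44.7%, 22.9% as higher and 21.7% as lower). Tfdp1, the partner of E2F proteins (log2 1.11, edgeR adjusted p = 7.16e-05), the repressor gene E2f7 (1.10, adjusted p = 0.00355) and the kinase gene Cdk6 (0.96, adjusted p = 0.000168) rose. Ccnd2 fell most (log2 -2.31, edgeR adjusted p = 0.00352), and among the cyclins, E2f genes and CDK inhibitors Ccnd1 (-1.32), E2f6 (-0.96), Cdkn1b (-0.72), Cdkn1c (-1.65) and Cdkn2c (-1.44) fell as well, with adjusted p of 0.00117 to 0.00583. In Mdl-1-/- against wild type 6 of 30 were higher and 1 was lower, where 7.58% and 10.1% of all genes were; called higher were the repressor gene E2f8 (1.10), cyclin gene Ccne2 (0.72) and the CDK inhibitor genes Cdkn1a (0.52) and Cdkn2b (1.03), and Cdk6 was lower (-0.46). Against wild type with GFP, Mdl-1-/- with IL-23 had Cdkn2b (1.60) and Cdkn1a (0.54) higher and Cdkn1c (-1.78) lower, with edgeR adjusted p of 0.00269, 0.0191 and 0.00696. Between genotypes the calls of Cdk6, Ccne2, E2f8, Cdkn2b and Cdkn1a were each lost in 4 to 12 of 20 alternative settings, all 5 of them without IL-23 wild-type library 2 or Mdl-1-/- library 1 (adjusted p = 0.0629 to 0.173 and 0.0762 to 0.113). The Cdkn1a call against GFP was lost without GFP library 1 or 3 or Mdl-1-/- library 1 or 2 (adjusted p = 0.0657 to 0.0698).

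Of 29 tested mitosis genes 17 rose and 1 fell with IL-23, with a median of 0.57, where 22.9% of all genes were called higher and 21.7% lower. In Mdl-1-/- against wild type 9 were lower and 0 higher, with a median of -0.36, where 10.1% of all genes were called lower and 7.58% higher. For the 0, 1 gene was higher at an unadjusted p under 0.05 and DESeq2 and limma voom called 0. Plk1, a mitotic kinase, rose most (32.7 ± 2.71 to 95.6 ± 27.2 CPM, log2 1.55, edgeR adjusted p = 2.4e-05), Nek2 fell (-1.11, adjusted p = 0.0238), and Birc5, the gene of survivin, had the largest fall in Mdl-1-/- against wild type (365 ± 52.1 to 159 ± 38.9 CPM, log2 -1.20, adjusted p = 0.00109). Of 18 tested genes of the replication checkpoint 2 rose, Exo1 most (1.21, edgeR adjusted p = 0.00536), and Rad17 fell (-0.45, adjusted p = 0.049), a call lost in 10 of 20 alternative settings, so that 3 of 18 were called where 44.7% of all genes were. The Nek2 call was lost without GFP library 1 or 3 or IL-23 wild-type library 2 or 3 (adjusted p = 0.0516 to 0.115). Between genotypes, where 17.7% of all genes were called, 0 of the 18 were called by edgeR, DESeq2 or limma voom, and 3 were lower at an unadjusted p under 0.05.

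Markers of several cell types moved with the same groups, while those of others did not. The part of these markers in the replication results was not tested. Their counts stand against 22.9% of all genes called higher and 21.7% lower with IL-23 in wild type. Between genotypes these shares were 7.58% and 10.1%, and in Mdl-1-/- with IL-23 against wild type with GFP 10.2% and 6.93%. All 6 markers of activated keratinocytes rose with IL-23 and 4 were lower in Mdl-1-/-, and their summed level was 368 to 649 CPM with GFP DNA, 49256 to 95849 CPM in wild type with IL-23 and 8836 to 30999 CPM in Mdl-1-/-. All 5 tested of 8 neutrophil markers rose and 2 were lower in Mdl-1-/- (89.4 to 105, 6875 to 14291 and 1583 to 5392 CPM in the same order). S100a9 is in both lists, and Ly6g, Camp and Ngp were near 0. The summed level did not follow every marker. The median log2 level of the 5 relative to the GFP mean was 0.68, 2.12 and -0.37 in the Mdl-1-/- libraries. It was 2.96 to 3.48 in wild type with IL-23. In Mdl-1-/- with IL-23 against wild type with GFP, 2 of the 5 were called higher. Of 4 tested of 7 T cell markers, 2 rose, Trac and Trbc2, and 1 was lower in Mdl-1-/-, while Cd8a had 0 counts in all GFP libraries and Cd4 at most 5 counts in any library. Basal keratinocyte markers, which mark the dividing layer, ran mostly lower with IL-23 in wild type: 8 of 9 were below 0 (median -0.53), Krt15, Col17a1, Dst and Lamb3 fell, and Krt14 rose. In Mdl-1-/- against wild type 8 of 9 were above 0 (median 0.30), of which Col17a1 and Dst were called, and Krt14 was lower. The summed level of the basal markers was 10309 to 12765 CPM with GFP DNA and 10971 to 13721 CPM in wild type with IL-23. These ranges overlapped, so the sum did not show the fall of single markers. In Mdl-1-/- with IL-23 it was 8346 to 11252 CPM.

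Among other lists, set against the same shares, 5 of 6 markers of differentiating keratinocytes rose with IL-23 (median 1.57), and 1 was higher in Mdl-1-/- against wild type. Their summed level was 2811 to 5661 CPM with GFP DNA, 10146 to 11519 CPM in wild type with IL-23 and 18076 to 22074 CPM in Mdl-1-/-. Of 5 tested of 6 dendritic and Langerhans cell markers 3 rose (45.6 to 72.4, 157 to 218 and 188 to 249 CPM in the same order), and between genotypes 0 were called by edgeR, DESeq2 or limma voom, with 1 lower at an unadjusted p under 0.05. Markers of adipocytes fell in 3 of 3 tested of 4 (median -2.34; 151 to 361, 31.7 to 59.8 and 37.7 to 68.9 CPM) and those of chondrocytes in 3 of 3 tested of 5 (median -2.66; 263 to 316, 87.3 to 120.4 and 128 to 180.5 CPM), and all 6 were also lower in Mdl-1-/- with IL-23 against wild type with GFP. Of 5 fibroblast markers 2 fell, Dcn and Pdgfra (607 to 943, 332 to 759 and 196 to 662 CPM), where 21.7% of all genes were called lower. Between the genotypes 0 of the 11 tested adipocyte, chondrocyte and fibroblast markers were called by edgeR, where 17.7% of all genes were. Of these markers 3 were higher at an unadjusted p under 0.05, DESeq2 called 2 higher and limma voom 0. Of 7 tested macrophage and monocyte markers 2 rose with IL-23, and between genotypes edgeR and DESeq2 called 0 and limma voom 1 higher. Of 5 gamma delta T and innate lymphoid markers 2 rose and 1 fell, and 1 was higher in Mdl-1-/- (medians -0.39 and 0.34). Erythroid markers gave 0 calls among 4 tested in either comparison. With IL-23, 1 of 3 endothelial and 1 of 5 skeletal muscle markers fell, and between genotypes 1 muscle marker was higher.

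The authors' deposited tables of their own edgeR comparisons put 12, 6 and 2 of the replication genes under a false discovery rate of 0.05 in the 3 comparisons, and all of these were among the 13, 8 and 2 called here. In the authors' deposited table for the genotypes, the sign is that of wild type over Mdl-1-/-, since all 1493 genes called in both had the opposite sign.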

How the data were processed

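The authors' deposited count tables hold whole-number read counts per Ensembl gene of 3′ tag RNA-seq libraries, made with STAR 2.7.0a and featureCounts per the submitters' processing notes, which also name edgeR and a human build, GRCh38.p6. The identifiers are mouse ones, so it is uncertain which build was aligned to. Annotation, strand handling and the treatment of multiply matching reads were not given in the sources used here, which limits the counts of overlapping genes. The authors' own edgeR tables, also deposited, hold log2 fold changes and p-values (false discovery rates) of their own comparisons and served only for the closing count of calls.

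The tables were joined (0 values differed between them) into 54838 genes and 9 libraries, and symbols and positions were taken from GENCODE M21 (GRCm38); 115 genes without a symbol held at most 0.0329% of a library's counts. Genes were kept by filterByExpr of edgeR 4.0.16 in R 4.3.3 (minimum count 10, minimum total 15), scaled by TMM and fitted in 1 model of 3 group means (6 residual degrees of freedom, robust dispersions). Quasi-likelihood F-tests were adjusted by Benjamini-Hochberg over 13807 genes and called under 0.05. SE is the log2 fold change over the square root of F, 95% intervals span the normal range of that SE, and the limit on a count of 0 takes 3 counts; both cover the spread or counting error only. CPM ± SD is TMM-scaled per 1e+06 counts of tested genes. DESeq2 1.42.0, limma 3.58.1 (voom), other scalings and filters, the replicate block and each library left out were alternatives, 20 in all. The script was tested on simulated counts. Libraries of a group differed by more than sampling noise (lowest chi-square per gene 4.22), and none were merged.

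Members and lists were chosen with earlier results of these data known. Every member called in a comparison or too low to test is given by library and the others by range; of other lists, the called gene with the largest rise and fall per comparison and the called G1-S cyclins, E2f genes and CDK inhibitors are named; further genes named where counts were small were chosen after their values were seen. Promoter windows are RefSeq, GRCm38.p6, the first listed per gene.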

Additional observations from a re-analysis of the deposited data

How the results depend on the processing

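The 3 comparisons were repeated under 20 alternatives. Relative to the median of all genes, the median of the replication genes stayed at 0.33 to 0.44 for IL-23 against GFP in wild type, at -0.41 to -0.23 for Mdl-1-/- against wild type with IL-23 and at 0.07 to 0.22 for Mdl-1-/- with IL-23 against wild type with GFP. Absolute medians moved with scaling, which shifts all genes alike: with upper-quartile factors they were 0.23 in the first and -0.017 in the third comparison, and with library totals alone -0.012, -0.18 and -0.16, with 4 replication genes called between genotypes. Scaling also moved the share of all called genes that were higher, from 51.3% to 38.9% with upper-quartile factors and 22.7% with library totals in the first comparison, from 42.9% to 53.2% and 67.0% in the second and from 59.4% to 43.7% and 26.1% in the third. Of the 36 log2 fold changes of replication genes, 5, 0 and 4 changed sign with upper-quartile factors and 12, 1 and 9 with library totals. For IL-23 against GFP under library totals these included Rfc1, then called lower (-0.36); Nasp, of the list of other replication factors and called higher in the reported fit, also changed sign (-0.024). Leaving out 1 library at a time gave 9 to 16, 2 to 9 and 1 to 3 called replication genes in the 3 comparisons, 4622 to 6352, 1128 to 2802 and 1340 to 2580 called genes in all, and medians of 0.29 to 0.38, -0.38 to -0.23 and 0.055 to 0.20. All genes called fell to 1128 and 1300 without wild-type IL-23 library 2 and 3, 1166 and 1363 without Mdl-1-/- library 1 and 3, and 1340 and 1365 in the third comparison without GFP library 3 and Mdl-1-/- library 2. Fewer libraries were used in these fits. The 23 calls of replication genes were repeated in 458 values under the alternatives, of which 394 kept the call and 64 lost it; of 1673 values of differences not called, 17 were called in the same direction and 1 with the sign reversed. For the called genes of the other pathway lists, 1504 of 1797 values kept the call, 292 lost it and 1 reversed, and of 1853 values not called 48 were gained. Deviations of same-numbered libraries of different groups had a Pearson r of -0.09 to 0.23 over genes, with 2 of 9 over 0.1. Differently numbered libraries gave -0.21 to 0.17, so the ranges overlapped, although the highest values, 0.23 and 0.18, were of same-numbered libraries. The numbers were not taken as pairs in the reported fit. With the replicate block 13, 8 and 2 replication genes and 6257, 2800 and 2682 genes in all were called; the block gained Mcm4 (adjusted p = 0.0264) and lost Gins4 (0.0519) in the first comparison and gained Lig1 (0.0286) and lost Pold1 (0.0547) in the second. Few counts limit the precision of genes read at a few CPM, among them Pola2, Chaf1b, Cdc45 and Pold1; 4 genes were too low to test, and the cause of their low counts was not tested.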
